A study of Mus musculus with 28 samples.

Results

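Hippocampi of aged mice given human umbilical cord plasma were compared with hippocampi of aged mice given phosphate-buffered saline (PBS). The comparison rested on 14 of the 28 arrays in the series, 7 titled brain-cord and 7 titled brain-PBS, and the titles gave the groups. Genes with a symbol in the processed table were kept, and where a symbol had several rows the row with the highest mean stood for it. Of 22256 symbols, 15781 genes were tested after dim rows had been left out. All mice were of the NSG strain, had a mean age of 14 months and received 6 intravenous injections of cord plasma, of young plasma, of old plasma or of PBS, with 7 arrays in each group. NSG mice lack mature lymphocytes, and so do their PBS controls. The labels do not say whether each array came from a separate mouse or how long after the last injection tissue was taken, so p-values measure only the spread between these samples. The question was whether plasma from human cord blood alters gene expression in the aged mouse hippocampus.

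The hippocampus encodes new memories, and its excitatory neurons respond to synaptic input by transcribing immediate early genes. These genes need no new protein for their induction: calcium entry and MAP kinase signalling act on factors such as CREB and SRF already bound at their promoters. Many encode transcription factors, among them Fos, Junb, Egr1, Nr4a1 and Npas4. Others encode effectors at the synapse, such as Arc, or inhibitors of the signal that switched them on, such as the phosphatase Dusp1.

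The values were log2 intensities, so a difference of 1 is a doubling of signal. Array medians over all 41345 rows lay between 4.99 and 5.02 for cord plasma and between 4.99 and 5.09 for PBS, and the correlation across genes between any pair of the 14 arrays was 0.985 to 0.995. The files give no scan date or slide. Single arrays stood apart in both groups for genes of other origin: PBS replicate 4 in interferon-stimulated genes, PBS replicate 6 in thalamus markers, PBS replicate 7 in rows of microRNA genes, and several arrays of both groups in choroid plexus markers. The values are given beside the results they touch.

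After Benjamini-Hochberg adjustment in limma 0% of the 15781 genes were under 0.05, with 0.224 as the smallest value. Before adjustment 783 genes were higher with cord plasma at p under 0.05, 4.96% of those tested, and 597 lower, 3.78%. Together these were 8.74% of genes, 1380 in number, and 789 would fall below the threshold by chance. For the same comparison 2169 of 23410 rows were under an unadjusted 0.05 in the authors' deposited table. Differences were small: the median size was 0.16 among the 1380 genes and 0.052 over all genes tested, and the median SE was 0.066. Only 12 genes, 0.076%, differed by more than 0.5, and 9 of them had an unadjusted p under 0.05. The 4 of these that were higher with cord plasma were Npas4, Fos, Dusp1 and Nr4a1, all immediate early genes. The 5 lower ones were the ribosomal protein gene Rps15, the olfactory receptor gene Olfr596, the microRNA genes Mir466b-2 and Mir669h, and the uncharacterised 3110053B16Rik. Rps15 and Olfr596 were dim, with means over all arrays of 4.72 and 4.79, just above the filter of 4.68. Their cord plasma means of 4.49 and 4.61 lay below it. Mir669h and Mir466b-2 were also dim, with means over all arrays of 4.98 and 5.06.

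**Figure D1:**
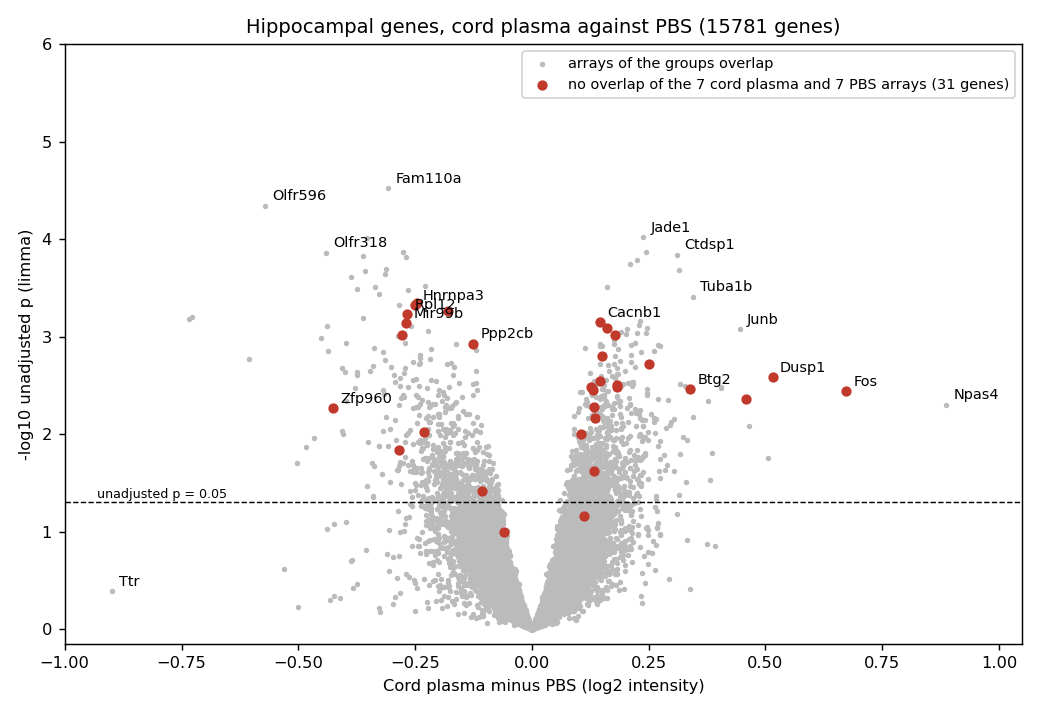
Each point is 1 of 15781 genes, with the difference of cord plasma minus PBS in log2 intensity on the horizontal axis and the negative log10 of limma's unadjusted p on the vertical axis. Red points mark the genes whose 7 cord plasma and 7 PBS arrays do not overlap, and the dashed line marks an unadjusted p of 0.05. Npas4, Fos and Dusp1 lie farthest to the right, while the points with the smallest p, such as Fam110a and Jade1, have differences of moderate size.

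Immediate early genes had more members on the high side at the unadjusted threshold than any other of the 34 pathway lists. All 31 listed genes passed the filter on dim rows. Of these, 25 were above 0 and 6 below, against 53.3% above 0 and 46.7% below over all genes tested. At an unadjusted p under 0.05, 9 of 31 were higher with cord plasma and 0 lower, against 4.96% and 3.78% of all genes, and 0 passed after adjustment. The median difference was 0.14, against 0.0061 over all genes. The 9 were Npas4, Fos, Dusp1, Nr4a1, Junb, Btg2, Sik1, Egr4 and Dusp5. This list had been known from earlier results to lie high in these arrays, so its direction is not independent evidence. In RNA from whole tissue, more responding cells and more RNA per cell, or fewer cells and less RNA per cell where values are lower, cannot be told apart.

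Promoters of 4 of these genes are shown because their arrays lay farthest apart and because CREB, a factor these genes answer to, binds TGACGTCA and its core TGACG. Each is the RefSeq window of 300 bases on GRCm38.p6, 250 before the start of the gene and 50 after, written in the direction of transcription. Fos is at chr12:85473640-85473939, plus strand. Dusp1 is at chr17:26508423-26508722, minus strand. Btg2 is at chr1:134079106-134079405, minus strand. Npas4 is at chr19:4989922-4990221, minus strand. Capitals mark every TGACG on either strand, where CGTCA is the same letters on the other strand and TGACGTCA holds an overlapping match on each strand.
Fos: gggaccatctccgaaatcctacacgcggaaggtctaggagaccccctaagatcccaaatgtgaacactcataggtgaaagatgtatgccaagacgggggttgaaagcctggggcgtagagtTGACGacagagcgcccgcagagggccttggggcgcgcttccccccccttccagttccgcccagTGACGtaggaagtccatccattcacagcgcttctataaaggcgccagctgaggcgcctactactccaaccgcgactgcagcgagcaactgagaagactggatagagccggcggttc
Dusp1: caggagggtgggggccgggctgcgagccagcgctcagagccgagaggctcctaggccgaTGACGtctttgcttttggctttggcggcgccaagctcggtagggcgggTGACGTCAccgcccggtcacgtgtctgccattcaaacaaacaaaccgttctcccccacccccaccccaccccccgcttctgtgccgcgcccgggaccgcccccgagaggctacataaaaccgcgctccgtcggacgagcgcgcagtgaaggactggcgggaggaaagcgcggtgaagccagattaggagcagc
Btg2: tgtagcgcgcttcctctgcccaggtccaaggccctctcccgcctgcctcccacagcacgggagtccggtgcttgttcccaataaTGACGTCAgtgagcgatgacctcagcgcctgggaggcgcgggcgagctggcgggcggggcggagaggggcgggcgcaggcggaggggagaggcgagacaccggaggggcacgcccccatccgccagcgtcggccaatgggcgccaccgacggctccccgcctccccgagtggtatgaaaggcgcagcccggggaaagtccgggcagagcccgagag
Npas4: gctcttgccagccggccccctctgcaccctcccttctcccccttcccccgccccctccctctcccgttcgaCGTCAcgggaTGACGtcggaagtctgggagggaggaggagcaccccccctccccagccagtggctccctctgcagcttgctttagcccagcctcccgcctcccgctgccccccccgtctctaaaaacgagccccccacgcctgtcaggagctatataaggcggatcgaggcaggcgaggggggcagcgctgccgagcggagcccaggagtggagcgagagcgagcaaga
TGACG occurred 2 times in the windows of Fos, Btg2 and Npas4 and 3 times in that of Dusp1, both strands counted, and the palindrome TGACGTCA stood in those of Dusp1 and Btg2. Of the 31 listed genes, 25 had a window, and 18 of these, 72%, held TGACG, against 32.6% of the 11505 genes tested that had one. A gene counted where any of its windows held the motif. Counted by single window, the share over all 32851 windows of the table was 20.8%. Of the 9 higher genes 8 had a window, and all 8 held the motif, beside the 72% of the list that includes them. These 9 were picked by p in these same arrays, and whether the motif bears on the differences was not tested. Among genes with a window, the palindrome stood in 12% of the list and 3.27% of all genes tested. Counted by single window it stood in 1.79%. These matches describe letters in a window and do not show that a factor was bound.

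Npas4 encodes a transcription factor that neurons induce in response to calcium entry. Its lowest, median and highest values were 5.87, 6.66 and 6.80 on cord plasma arrays, against 4.91, 5.81 and 6.18 on PBS arrays. Cord plasma was higher by 0.89 (SE 0.29, adjusted p = 0.358 in limma), a 1.85-fold ratio. The groups overlapped through a single array: 6 of 7 cord plasma arrays exceeded all PBS arrays, and cord plasma replicate 3 lay within the PBS range.

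Fos, the partner of Jun proteins in the AP-1 factor, had values of 6.10, 6.48 and 7.01 (lowest, median and highest) with cord plasma and 5.65, 5.74 and 6.10 with PBS. The groups did not overlap, although the lowest cord plasma array and the highest PBS array were nearly equal. The difference was 0.67 (SE 0.21, adjusted p = 0.348). Dusp1, a phosphatase that switches off MAP kinases, ran over 7.73, 7.94 and 8.38 with cord plasma against 7.31, 7.44 and 7.69 with PBS. Its difference was 0.52 (SE 0.16, adjusted p = 0.346), again with no overlap. Btg2, an antiproliferative regulator of mRNA turnover, had the tightest groups of the 4: 6.56, 6.61 and 6.76 with cord plasma and 6.14, 6.34 and 6.41 with PBS. The gap between the groups was clear, and the difference was 0.34 (SE 0.11, adjusted p = 0.347).

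The remaining members of the list overlapped between groups. Junb, another AP-1 subunit, had 7.62, 7.78 and 8.19 with cord plasma against 7.20, 7.34 and 7.68 with PBS, a difference of 0.44 (SE 0.12), with 4 cord plasma arrays above every PBS array. Nr4a1, an orphan nuclear receptor, had 8.56, 8.83 and 9.76 with cord plasma against 8.10, 8.41 and 8.93 with PBS, a difference of 0.50 (SE 0.20). In both, the lower cord plasma arrays lay within the PBS range. Arc, which controls the removal of AMPA receptors from synapses, had 9.54, 9.76 and 10.25 with cord plasma and 9.09, 9.42 and 9.70 with PBS. Its difference of 0.39 (SE 0.26) did not reach an unadjusted p of 0.05, and neither did that of Egr1, a zinc finger factor, at 0.33 (SE 0.21). Sik1, a kinase that restrains CREB co-activators, stood at 0.24 (SE 0.09), the zinc finger factor Egr4 at 0.23 (SE 0.09) and Dusp5 at 0.18 (SE 0.08). On the other side, Jun was at -0.10 (SE 0.08) and Maff at -0.15 (SE 0.08). Sik1, Egr4, Jun and Maff were chosen for the text after their values were seen.

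**Figure D2:**
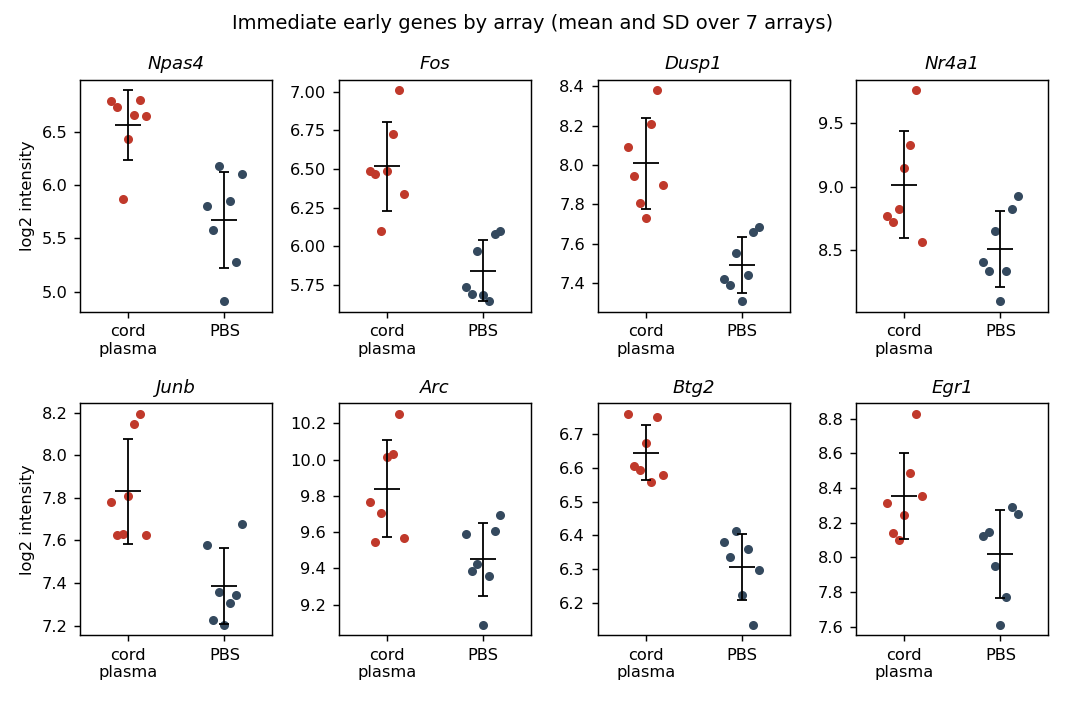
Log2 intensity of 8 immediate early genes on each of the 7 cord plasma arrays (left in each panel) and the 7 PBS arrays (right), with bars for the mean and SD. Fos, Dusp1 and Btg2 do not overlap between the groups, 1 cord plasma array of Npas4 falls among the PBS arrays, and the groups of Junb, Nr4a1, Arc and Egr1 overlap.

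The mean of the 31 genes ran from 7.34 to 7.71 over the cord plasma arrays and from 7.15 to 7.40 over the PBS arrays. The highest PBS mean was exceeded on 5 cord plasma arrays, and replicates 3 and 7 lay within the PBS range. The spread was uneven. Cord plasma replicate 6 was the highest of the 14 arrays for 17 of the 31 genes, and PBS replicate 4 was the lowest for 13. Without cord plasma replicate 6 the count at an unadjusted p under 0.05 was 6 and the median difference 0.098. Without PBS replicate 4 the count was 7 and the median 0.14. Over all single arrays left out, Fos ranged from 0.59 to 0.74, Npas4 from 0.76 to 1.002 and Btg2 from 0.31 to 0.36. With the mean of cortex markers as a covariate, Fos was 0.58, Dusp1 0.47 and Npas4 0.79.

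The list of negative regulators of the MAP kinase pathway held dual-specificity phosphatases and the Sprouty and Spred proteins. At an unadjusted p under 0.05, 5 of 18 genes were higher and 0 lower, against 4.96% and 3.78% of all genes. The median was 0.055, with 13 above 0 and 5 below. Dusp1, Dusp5 and, short of the threshold, Dusp6 (0.15, SE 0.12) belong to the immediate early list as well. Beyond them, Dusp7, a phosphatase for ERK, had 7.70, 7.79 and 7.88 with cord plasma against 7.55, 7.67 and 7.79 with PBS, a difference of 0.13 (SE 0.04). Spry2, which dampens growth factor signalling, was 0.15 higher (SE 0.06), with 5 cord plasma arrays above every PBS array. The count was 2 without PBS replicate 6 and 3 without PBS replicate 4. Slower activity-regulated genes, induced after the immediate early wave, had 1 of 20 on the high side and a median of 0.037. In that list and the neurotrophin list, where 0 of 17 reached the threshold, the shares were at or below the background.

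The 7 cord plasma arrays lay wholly above the 7 PBS arrays for 19 genes, 0.12% of those tested, and wholly below for 12, 0.076%. Apart from Fos, Dusp1 and Btg2 the differences on the high side were mostly between 0.11 and 0.25. Wwtr1, which encodes the Hippo pathway co-activator TAZ, had 6.996, 7.06 and 7.39 with cord plasma against 6.60, 6.90 and 6.98 with PBS, a difference of 0.25 (SE 0.07, adjusted p = 0.326 in limma). Cacnb1, a regulatory subunit of voltage-gated calcium channels, had 8.35, 8.43 and 8.51 with cord plasma and 8.13, 8.31 and 8.34 with PBS, a difference of 0.15 (SE 0.04). Its groups almost touched. Lrfn5, a synaptic adhesion protein, had 8.33, 8.39 and 8.46 with cord plasma and 8.17, 8.25 and 8.31 with PBS, also a difference of 0.15 (SE 0.04). Tceal8 had 7.11, 7.17 and 7.22 with cord plasma and 6.95, 7.02 and 7.08 with PBS, a difference of 0.16 (SE 0.04). In both genes the spread within each group was smaller than the difference. The others included Adap1, a GTPase-activating protein for Arf6 (0.14), Alg10b, a glucosyltransferase of N-glycan assembly (0.18), the recombination repair gene Xrcc3 (0.18), Btbd6 (0.13), Tmem198 (0.13) and Nfkbib, an inhibitor of NF-kappa-B (0.13).

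On the low side, Hnrnpa3, an RNA-binding protein, had 7.14, 7.46 and 7.56 with cord plasma against 7.59, 7.67 and 7.70 with PBS, a difference of -0.25 (SE 0.06, adjusted p = 0.28 in limma). Rpl12, a protein of the large ribosomal subunit, had 10.07, 10.39 and 10.50 with cord plasma against 10.56, 10.63 and 10.73 with PBS, a difference of -0.27 (SE 0.07). In both, PBS arrays were tightly grouped and cord plasma replicate 4 was the lowest array. A dim additional row of Rpl12 differed by 0.063 in the opposite direction. Ppp2cb, a catalytic subunit of protein phosphatase 2A, had 9.39, 9.43 and 9.48 with cord plasma and 9.53, 9.55 and 9.63 with PBS, a difference of -0.13 (SE 0.03). The nuclear envelope gene Syne1 stood at -0.18 (SE 0.05), but its 8 rows lay between -0.18 and 0.044 and did not share a sign. Zfp960, a zinc finger gene, was at -0.43 (SE 0.14). Mtx2, which takes part in mitochondrial protein import, was at -0.11 (SE 0.05). Others were the hair keratin gene Krt33a (-0.28), Ube4bos1 (-0.25) and 3 microRNA genes. Krt33a and Ube4bos1 were dim, with means over all arrays of 5.22 and 5.25.

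**Figure D3:**
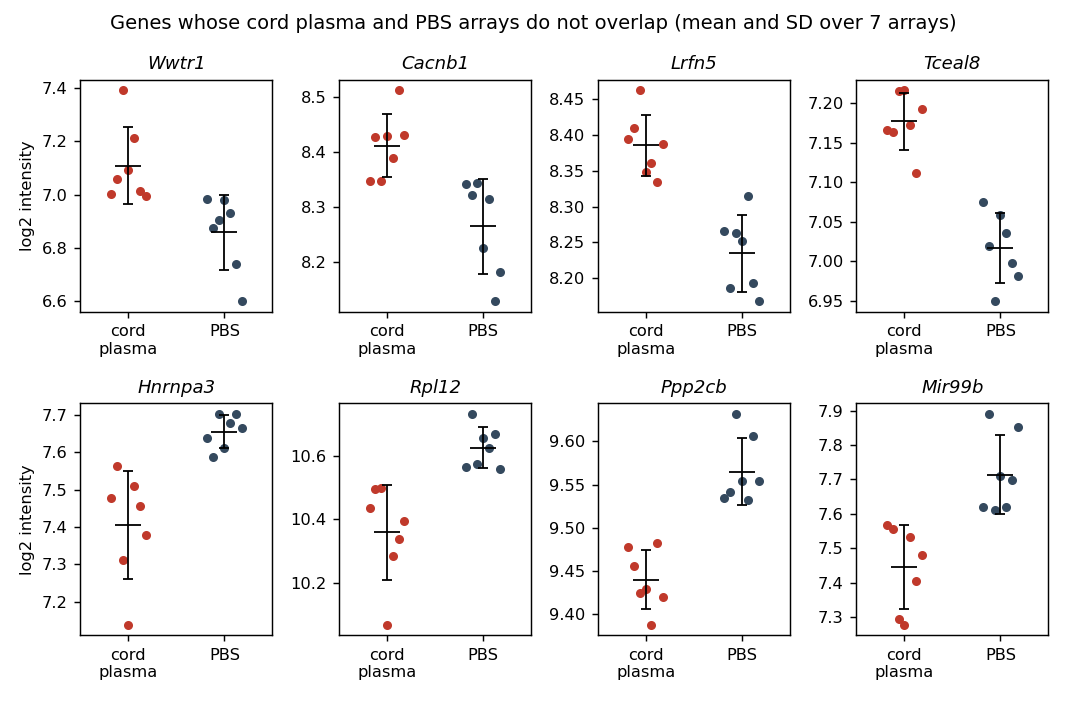
Log2 intensity on each of the 7 cord plasma arrays (left in each panel) and the 7 PBS arrays (right), with bars for the mean and SD, for 4 genes wholly higher and 4 wholly lower with cord plasma. The gap is narrow for Wwtr1 and Cacnb1 and wider for Lrfn5, Tceal8, Ppp2cb and Mir99b.

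Genes with the smallest p were of varied function. Fam110a had the smallest unadjusted p, with 5.73, 6.05 and 6.13 on cord plasma arrays against 6.01, 6.35 and 6.49 on PBS arrays, a difference of -0.31 (SE 0.06, adjusted p = 0.224). PBS replicate 1 was the only PBS array within the cord plasma range. Without it, Fam110a passed limma's threshold with an adjusted p of 0.011. Jade1, a subunit of a histone acetyltransferase complex, had 6.91, 7.03 and 7.09 with cord plasma against 6.59, 6.79 and 6.96 with PBS, a difference of 0.24 (SE 0.05, adjusted p = 0.224). Here 5 cord plasma arrays exceeded all PBS arrays. The Wnt pathway antagonist Dact3 was at 0.24 (SE 0.06), Ctdsp1, a phosphatase of the RNA polymerase II tail, at 0.31 (SE 0.07), and Mansc1 at 0.23 (SE 0.05). Tuba1b, an alpha-tubulin, had 6.80, 6.86 and 6.94 with cord plasma against 6.06, 6.56 and 6.91 with PBS, a difference of 0.34 (SE 0.09). The cord plasma arrays were close together, whereas the PBS arrays were widely spread and 2 of them reached the cord plasma range. Of genes of neurotransmitter release, the synaptotagmin Syt12 was at 0.23 (SE 0.06) and Prrt2, a presynaptic membrane protein, at 0.23 (SE 0.06). Among genes on the low side were the lens crystallin Crygn (-0.28, SE 0.06), Exoc3l (-0.27, SE 0.06), the olfactory receptor Olfr318 (-0.44, SE 0.10) and Duox1, an enzyme that makes hydrogen peroxide (-0.31, SE 0.07). Crygn, Exoc3l and Duox1 were dim, with means over all arrays of 5.41, 5.43 and 5.20. PBS replicate 5 was the only PBS array of Crygn within the cord plasma range. Without it, Crygn had an adjusted p of 0.0441 in limma. For Fam110a and Crygn alike, the array left out was the only PBS array that overlapped, so these lower values are not separate evidence. Plin4, a lipid droplet coat protein, had 5.62, 5.79 and 6.37 with cord plasma against 6.20, 6.33 and 6.66 with PBS, a difference of -0.48 (SE 0.18), with 6 cord plasma arrays below every PBS array.

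Ion channel and postsynaptic genes lay more often above 0 than below, where 53.3% of all genes were above 0 and 4.96% were higher at an unadjusted p under 0.05. Of 32 potassium channel genes, 25 were above 0, and at an unadjusted p under 0.05, 4 were higher and 0 lower with cord plasma, with a median of 0.047. Kcnh3, a voltage-gated channel of forebrain neurons, had 9.001, 9.14 and 9.44 with cord plasma against 8.81, 8.95 and 9.11 with PBS, a difference of 0.21 (SE 0.07). Others were the inward rectifier Kcnj4 at 0.13 (SE 0.06) and Kcnq3, a subunit of the M-current, at 0.12 (SE 0.05). Of 26 sodium and calcium channel genes, 20 were above 0 and 3 were higher at that threshold: Cacnb1, the T-type channel Cacna1h at 0.17 (SE 0.08) and the P/Q-type channel Cacna1a at 0.11 (SE 0.05). Of 29 postsynaptic scaffold genes, 22 were above 0 and 3 were higher, namely Psd, an Arf6 exchange factor, at 0.15 (SE 0.04), Iqsec2, another Arf exchange factor, at 0.15 (SE 0.05) and Nlgn2, an adhesion protein of inhibitory synapses, at 0.10 (SE 0.04). With single arrays left out the count of higher genes ranged from 2 to 5 for potassium channels, from 1 to 5 for sodium and calcium channels and from 3 to 6 for postsynaptic scaffolds. Glutamate receptor genes had 0 of 30 in either direction. Presynaptic release genes were mixed, with Syn3, a synapsin, at 0.19 (SE 0.08) and the fusion proteins Napb at -0.18 (SE 0.06) and Vamp2 at -0.08 (SE 0.04).

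Shares also differed with brightness over all genes. With the genes tested divided by mean signal into 5 equal classes, a division chosen after values were seen, the fourth class held 16 of the 32 potassium channel genes and 4 of the 26 sodium and calcium channel genes, and the brightest class held 15 and 18 of them. At an unadjusted p under 0.05, 6.81% of all genes in the fourth class were higher and 1.96% lower, and in the brightest class 4.94% and 3.64%. In the dimmest class the shares were 2.82% higher and 7.6% lower. Without PBS replicate 7 they were 4.69% and 2.28% in the fourth class and 3.04% and 5.35% in the dimmest. After repeated quantile normalization the dimmest class had 4.59% higher and 5.13% lower. That class, which ends at 5.44, held Crygn, Exoc3l, Duox1, Krt33a and Ube4bos1 among other genes named above. Centring each array on its median raised the number higher to 1032 and reduced the number lower to 435, so that 70.3% of the genes under the threshold were higher instead of 56.7%. It moved the median of all genes to 0.016.

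Of 30 proteasome genes, 6 were lower at an unadjusted p under 0.05 and 0 higher, against 3.78% and 4.96% of all genes, with 21 below 0 and a median of -0.025. Psmc6, an ATPase of the regulatory particle, had 8.90, 9.02 and 9.05 with cord plasma against 9.02, 9.14 and 9.16 with PBS, a difference of -0.13 (SE 0.04). The groups overlapped through PBS replicate 2. Psma2, an alpha subunit of the core, was at -0.15 (SE 0.06), the ATPase Psmc1 at -0.11 (SE 0.05) and the beta subunit Psmb1 at -0.10 (SE 0.04). The mean of the list ran from 8.54 to 8.61 with cord plasma and from 8.55 to 8.65 with PBS, so it overlapped widely. With single arrays left out the count of lower genes ranged from 3 to 7.

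Among 29 heat shock and chaperone genes 3 were lower and 0 higher: the chaperonin subunits Cct2 at -0.12 (SE 0.04) and Cct4 at -0.08 (SE 0.04), and Hspa5, the chaperone of the endoplasmic reticulum, at -0.12 (SE 0.05). Oxidative phosphorylation genes divided, with 5 of 43 lower and 3 higher, against 3.78% and 4.96% of all genes. With single arrays left out these counts ranged from 1 to 7 lower and from 1 to 3 higher. Cox7b, a subunit of cytochrome c oxidase, had 8.62, 8.92 and 9.11 with cord plasma against 8.97, 9.17 and 9.37 with PBS, a difference of -0.26 (SE 0.08). Ndufv2 and Cox6c, subunits of the respiratory chain, were each at -0.09 (SE 0.04). On the other side Sdhd, a subunit of succinate dehydrogenase, was at 0.16 (SE 0.06), and its additional row at -0.072 had the opposite sign. The peroxide-reducing enzymes Prdx1 and Prdx2 were at -0.14 (SE 0.06) and -0.12 (SE 0.04), in an antioxidant list of 27 with 2 lower, 2 higher and a median of -0.0004. Of 28 cytosolic ribosomal protein genes 3 were lower and 1 higher, and the median was 0.01. Rps12 stood at -0.28 (SE 0.09) and Rpl7 at -0.17 (SE 0.08). As with Rpl12, each had a dim additional row of opposite sign, 0.012 for Rps12 and 0.037 for Rpl7.

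**Figure D4:**
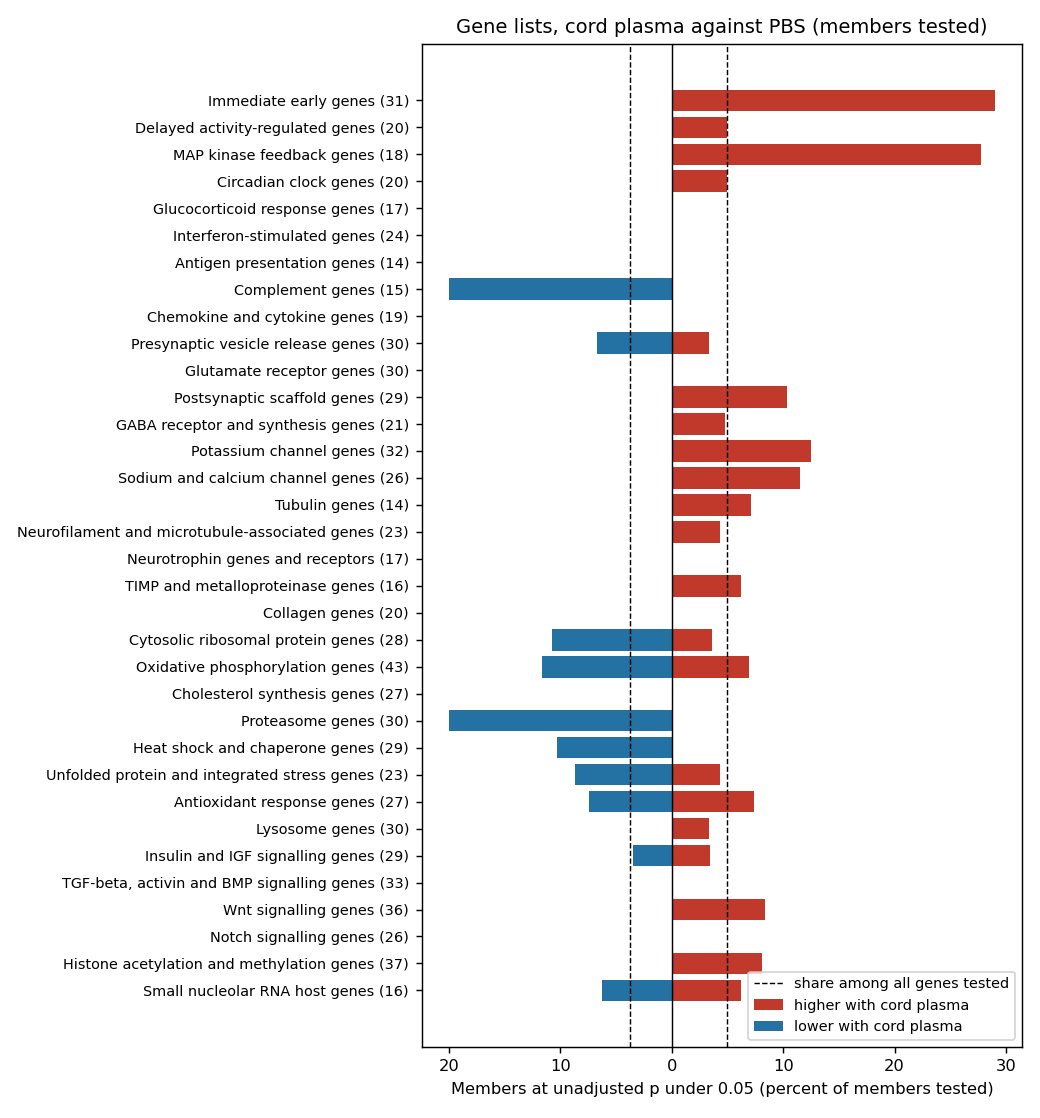
Percent of the tested members of each of 34 gene lists with an unadjusted p under 0.05, higher with cord plasma to the right and lower to the left, with the number of members tested in brackets. Dashed lines mark the shares among all genes tested, 4.96% higher and 3.78% lower. Immediate early and MAP kinase feedback genes extend farthest to the right, and complement and proteasome genes farthest to the left.

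A single PBS array stood apart in immune genes. Of 24 interferon-stimulated genes above the filter, 21 were below 0 and the median was -0.15. With all arrays, 0 reached an unadjusted p of 0.05 in either direction. The mean of the list was 5.78 to 5.92 over the cord plasma arrays. On PBS arrays it was 7.19 on replicate 4 and 5.70 to 5.86 on the others. PBS replicate 4 was the highest of the 14 arrays for 23 of the 24 genes, by a median of 1.35 over the median of the other 6 PBS arrays. Irf7, the factor that amplifies the interferon response, had a median of 5.73 on cord plasma arrays, against 8.67 on PBS replicate 4. The largest excess on this PBS array, 3.11, was that of Ifi44. Both genes were chosen for the text after their values were seen. Without that array the median of the list was 0.067. Over all single arrays left out, the counts at the unadjusted threshold ranged from 0 to 5 higher and from 0 to 2 lower. With all arrays, 4.96% of all genes were higher and 3.78% lower. Ifi27 was at -0.28 (SE 0.20) with it and at -0.074 without it. Antigen presentation genes had 0 of 14 in either direction, and their medians were -0.0021 with it and 0.05 without it.

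Complement genes had 3 of 15 lower and 0 higher, against 3.78% and 4.96% of all genes, with a median of -0.041. C1qa and C1qb, chains of the C1q recognition protein made by microglia, were at -0.11 (SE 0.05) and -0.14 (SE 0.05). Cd59a, which blocks assembly of the lytic complex, had 7.75, 7.96 and 8.53 with cord plasma against 7.98, 8.48 and 8.86 with PBS, a difference of -0.35 (SE 0.16). Both C1q chains were highest on PBS replicate 4. Without that array C1qa was at -0.073 and C1qb at -0.092, the count was 1 and the median -0.0002. The additional row of C1qb had the opposite sign. Of markers of neutrophils and monocytes, 10 of 23 passed the filter, 9 of them below 0 and 2 lower at an unadjusted p under 0.05. The chemokine receptor Cxcr2 was at -0.32 (SE 0.10) and the acute-phase protein Saa3 at -0.28 (SE 0.11), both dim on these arrays. An additional row of Cxcr2, with a mean of 4.94 beside 5.08 for the row used, differed by only -0.042. The mean of Saa3 over all arrays, 4.68, was at the filter. Its cord plasma mean of 4.56 lay below, so it was tested only through other groups. Without PBS replicate 4 the count of lower markers was 1. Chemokine and cytokine genes had 0 of 19 in either direction, and Csf2, a cytokine gene at 2.63, lay below the filter of 4.68.

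Markers of the tissue were checked against the label. Their counts at an unadjusted p under 0.05 stand beside 4.96% higher and 3.78% lower over all genes. Of the dentate granule markers 16 of 18 passed the filter, and of the markers of CA1 to CA3 pyramidal neurons 20 of 20. Their medians were 0.028 and 0.041. Calb1, a calcium-binding protein of granule cells, was at -0.11 (SE 0.05) and the matrix protein Npnt at 0.24 (SE 0.09). Astrocyte markers had 0 of 22 in either direction, with a median of 0.01, and oligodendrocyte markers 0 of 24, with a median of -0.028. The microglial markers had 2 of 23 lower, the C1q chains named above. Pdgfrb, the growth factor receptor of pericytes, had 7.39, 7.50 and 7.78 with cord plasma against 7.20, 7.28 and 7.43 with PBS, a difference of 0.21 (SE 0.06). It was the only 1 of 26 endothelial and pericyte markers at the threshold. Of markers of new neurons and progenitors 1 of 15 was higher, the transcription factor Sox4 at 0.21 (SE 0.07). Of the lymphocyte markers with a symbol, 8 of 17 passed the filter, with list means of 5.16 to 5.33 for cord plasma and 5.21 to 5.49 for PBS.

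Neighbouring tissue varied between arrays of both groups. Ttr, the transport protein that marks choroid plexus, had 7.16, 9.35 and 12.92 with cord plasma against 8.15, 12.49 and 12.79 with PBS, a difference of -0.90 (SE 1.07). It was the lowest difference of all genes and had an unadjusted p far above the threshold. Of 23 choroid plexus and ependyma markers 20 were below 0, with list means of 5.71 to 7.80 for cord plasma and 5.69 to 7.57 for PBS. Of 19 cortex markers 2 were higher and 1 lower at an unadjusted p under 0.05, against 4.96% and 3.78% of all genes. The list means were 7.13 to 7.62 for cord plasma and 7.20 to 7.50 for PBS. Rspo1, a Wnt agonist, was at 0.32 (SE 0.15) and at 0.20 without cord plasma replicate 7, and Crym, a thyroid hormone-binding protein, was at -0.21 (SE 0.08). Of 20 thalamus markers 16 were below 0, with a mean of 7.61 on PBS replicate 6 and 6.65 to 6.94 on the other PBS arrays. Without that array 13 were above 0. The part of these tissues in the results was not tested beyond the fits with choroid plexus or cortex markers as a covariate. With the choroid plexus covariate Fos was 0.61 and Npas4 0.81.

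**Figure D5:**
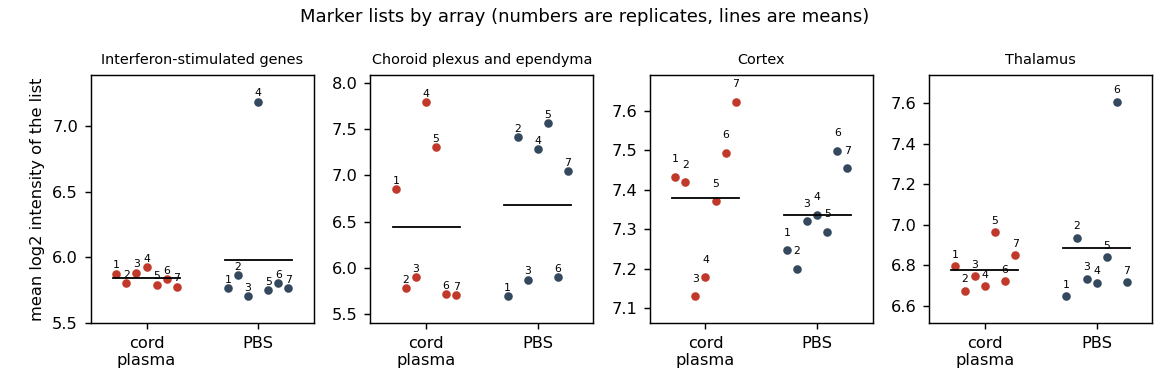
Mean log2 intensity of 4 gene lists on each of the 7 cord plasma arrays (left in each panel) and the 7 PBS arrays (right), with replicate numbers beside the points and lines for the group means. PBS replicate 4 stands alone in interferon-stimulated genes and PBS replicate 6 in thalamus markers, while choroid plexus means are high on some arrays and low on others in both groups.

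Signalling and chromatin lists had few members at the threshold. Over all genes tested, 4.96% were higher and 3.78% lower at an unadjusted p under 0.05. Of 33 TGF-beta, activin and BMP genes 24 were above 0, with a median of 0.049, and 0 reached an unadjusted p of 0.05 in either direction. Wnt genes had 3 of 36 higher, among them the scaffold Axin1 at 0.15 (SE 0.07), and genes of histone acetylation and methylation 3 of 37 higher, among them the demethylase Kdm6b at 0.12 (SE 0.06). In insulin signalling 1 gene was higher and 1 lower of 29: the kinase Akt2 at 0.22 (SE 0.07) and Gsk3b, a kinase it inhibits, at -0.09 (SE 0.04). Circadian clock genes had 1 of 20 higher, Arntl, the positive arm of the clock, at 0.12 (SE 0.04). Notch, cholesterol synthesis, collagen and glucocorticoid response genes had 0 in either direction. Of the 17 glucocorticoid response genes 13 were below 0, against 46.7% of all genes. Their median was -0.077, and -0.040 without PBS replicate 4. Among genes followed in brain ageing, Timp2, an inhibitor of metalloproteinases, had 9.34, 9.75 and 10.004 with cord plasma against 9.24, 9.94 and 10.12 with PBS, a difference of -0.14 (SE 0.12). Its groups overlapped entirely, and the difference was -0.25 without PBS replicate 1. In the same list the metalloproteinase Mmp24 was at 0.16 (SE 0.05).

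Rows of microRNA genes were lower more often than the background. This family was picked out after values were seen and has no test. Of 133 such rows above the filter, 27, 20.3%, were lower at an unadjusted p under 0.05 and 9, 6.77%, higher, against 3.78% and 4.96% of all genes. Their mean ran from 5.81 to 5.92 over the cord plasma arrays and from 5.86 to 5.92 over PBS arrays apart from replicate 7, which was at 6.08. Without that array 21 were lower and 13 higher. For comparison, with all arrays the dimmest class of brightness had 7.6% of its genes lower and 2.82% higher. The second class had 4.15% lower and 4.4% higher. Mature sequences of the 3 rows described next are shown so that the arms can be told apart. They are from RefSeq on GRCm38.p6, with the seed, bases 2 to 8, in capitals. The arms of miR-139 are at chr7:101475382-101475403 and chr7:101475418-101475439, those of miR-99b at chr17:17830194-17830215 and chr17:17830232-17830253, and those of miR-1198 at chrX:7807142-7807163 and chrX:7807180-7807201, all on the plus strand.
mmu-miR-139-5p: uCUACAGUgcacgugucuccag
mmu-miR-139-3p: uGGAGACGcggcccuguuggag
mmu-miR-99b-5p: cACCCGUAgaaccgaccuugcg
mmu-miR-99b-3p: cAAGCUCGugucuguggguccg
mmu-miR-1198-5p: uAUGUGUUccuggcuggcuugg
mmu-miR-1198-3p: aAGCUAGCcucuaacucauggc
No seed is shared among these 6 arms. The labelling reaction was made for whole transcripts and the row does not say whether the mature RNA, its precursor or the host transcript gave the signal. The Mir99b row had 7.28, 7.48 and 7.57 with cord plasma against 7.61, 7.70 and 7.89 with PBS, a difference of -0.27 (SE 0.07) with no overlap. Mir1198 had 6.01, 6.09 and 6.57 with cord plasma against 6.35, 6.61 and 6.72 with PBS, a difference of -0.39 (SE 0.09), with 6 cord plasma arrays below every PBS array. In the other direction, Mir139 had 5.23, 5.31 and 5.65 with cord plasma against 4.61, 5.10 and 5.31 with PBS, a difference of 0.40 (SE 0.13), with 3 cord plasma arrays above every PBS array. Zinc finger genes named Zfp, also picked out after values were seen, had 24 of 312 higher, 7.69%, and 5 lower, 1.6%, beside the 5.83% and 1.55% of all genes in the third class of brightness and the 6.81% and 1.96% in the fourth. Without PBS replicate 7 these counts were 15 and 3.

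Cord plasma was also set against the plasma groups directly. Against young plasma, 0% of genes were under an adjusted 0.05 in limma (lowest value 0.55), and 7.22% were under 0.05 before adjustment. Against old plasma these shares were 0% (lowest value 0.999) and 4.2%. The differences of the 3 plasma groups from PBS share the same 7 PBS arrays, so they are not independent and are given side by side only. Fos was 0.67 with cord plasma, 0.57 with young plasma and 0.33 with old plasma, each minus PBS. Npas4 was 0.89 with cord plasma, 0.69 with young plasma and 0.55 with old plasma, and Dusp1 was 0.52, 0.47 and 0.23 in the same order. Between cord and young plasma Fos differed by 0.10 (SE 0.21) and Npas4 by 0.20 (SE 0.29), and between cord and old plasma Fos differed by 0.35 (SE 0.21). Neither comparison passed, which does not show that the plasmas act alike.

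Btg2 was 0.34 with cord plasma, 0.02 with young plasma and 0.05 with old plasma, each minus PBS. Cord minus young plasma was 0.31 (SE 0.11, adjusted p = 0.672 in limma) and cord minus old plasma 0.29 (SE 0.11, adjusted p = 0.999). Mir99b was -0.27 with cord plasma, 0.03 with young plasma and -0.22 with old plasma. Per1, a clock gene that is also an immediate early gene, was 0.15 with cord plasma, 0.47 with young plasma and 0.18 with old plasma, and cord minus young plasma was -0.32 (SE 0.11, adjusted p = 0.672). Among genes separated from PBS, Cacnb1 was 0.15 with cord plasma, 0.10 with young plasma and 0.13 with old plasma, Hnrnpa3 was -0.25, -0.14 and -0.19 in the same order, and Tceal8 was 0.16, 0.14 and -0.0034.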

How the data were processed

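RNA of mouse hippocampus was hybridised to Affymetrix whole-transcript arrays, per the labels' protocols. The deposited values are log2 intensities from RMA (per the submitters' processing notes, which name no version). RMA equalises the distributions of the arrays, so a change common to most genes would appear smaller. The authors' table gave gene symbols and unadjusted p-values, per the file headers, and its group means equalled those of the value table within 7.1e-09.

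Rows with a mean under the 30th percentile of named rows, 4.68, were left out. limma 3.58.1 in R 4.3.3 fitted 1 mean per group over all 28 arrays, with eBayes and Benjamini-Hochberg adjustment over 15781 genes at 0.05. SE is the moderated standard error. The number of arrays limits the precision. On simulated data with 15781 genes, limma recovered 50% of changes of 0.25, 94% of 0.5 and 100% of 1, with 6 false calls among 175. The shares describe the simulated data alone. On the real arrays Fos differed by 0.67 and did not pass, with an SE of 0.21 against a median SE of 0.066.

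Members and lists were chosen with earlier results of these data known. Genes named are the smallest p and largest differences, genes without overlap, up to 4 members a direction of each of 50 lists and a set of activity and ageing genes; the text gives part of them. Alternatives were other filters, scalings, variance models, covariates, a replicate block and each array left out.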

Additional observations from a re-analysis of the deposited data

Results flagged for a closer look

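Within a group of 7 arrays, an array was examined when its gap to the nearest other array was large against the range of the group. Of 308 such groups 24 held an array standing apart. Chance would give about 1 in 20, or 15, if the groups were independent and chosen beforehand. These groups share arrays and genes, and some genes were chosen after their values were seen, so the counts cannot be compared.

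Among cord plasma arrays, replicate 3 was low for Npas4 at 5.869 (nearest other array 6.430) and Fam110a at 5.733, and high for the proteasome gene Psma2 at 8.668 and Cox6c at 10.643. The same array was lowest in the mean of neurofilament and microtubule-associated genes at 9.364, of cholesterol synthesis genes at 7.750 and of Wnt genes at 6.852. Replicate 4 was low for Krt33a at 4.774 and the ribosomal gene Rpl7 at 8.490. Replicate 5 was high for Xrcc3 at 6.989. Replicate 7 was high for Adap1 at 8.900 and Rspo1 at 7.546, where the nearest array had 6.764.

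Among PBS arrays, replicate 4 was high in the mean of interferon-stimulated genes at 7.187 (nearest 5.862), of antigen presentation genes at 6.541 and of glucocorticoid response genes at 7.839, and for Ifi27 at 8.736, C1qb at 8.489 and Vamp2 at 9.646. The same array was high for Ifi44 at 8.194 (nearest 5.235) and Irf7 at 8.670 (nearest 5.964). Replicate 1 was low for Timp2 at 9.240 and 3110053B16Rik at 5.400. Replicate 6 was high in thalamus markers at 7.606 (nearest 6.936), and replicate 7 low in astrocyte markers at 8.990. The causes were not tested.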

How the results depend on the processing

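Most named genes were chosen for their differences in these same arrays, and most alternatives reuse nearly all of the values. Agreement in direction was thus largely fixed by that choice and is not a measure of robustness. In the alternatives run, 104 named genes gave 2585 values, of which 2583 kept their direction. The other 2, both without PBS replicate 4, were Irf7 at 0.045 and Ifi44 at 0.24 (-0.39 and -0.21 with all arrays). Over single arrays left out Irf7 ranged from -0.50 to 0.045 and Ifi44 from -0.34 to 0.24. Between cord plasma and PBS limma called 0 genes at an adjusted 0.05, except 1 without PBS replicate 1 (Fam110a) and 1 without PBS replicate 5 (Crygn), so the count ranged from 0 to 1 over single arrays left out. Counts at an unadjusted p under 0.05 then ranged from 584 to 919 higher and from 478 to 770 lower, and genes without overlap from 23 to 57 higher and from 15 to 46 lower, where 6 against 7 arrays separate more easily. The filter at the 50th percentile, which tests fewer genes, gave 312 lower, and no filter gave 20 lower genes without overlap. Cord minus young and cord minus old plasma stayed at 0 throughout. Repeated quantile normalization put 52.1% of genes under the unadjusted threshold above 0. The median of lymphocyte markers was -0.23 under the stricter filter, which lay at 5.76. It rests on very few genes, because 6 of the 8 tested were in the dimmest class of brightness, which ends at 5.44. Arrays with the same replicate number did not deviate together in every pair (correlations -0.152 to 0.308, with 2 of 7 matching their own number best). The labels name no pairing, and these weak correlations cannot decide whether equal numbers share a batch. With the replicate block 0 genes passed, and 751 were higher and 609 lower at an unadjusted p under 0.05. The files hold no signal over background, so dim rows cannot be told from noise.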
